A study of Homo sapiens with 30 samples.

Results

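A set of 3 cell lines that carry the amino acid change T1080I in SF3B1 was set against a control line in the absence of drug, with 6 of the 30 libraries of the series taken by their titles. SF3B1 is the largest subunit of SF3b, the part of the U2 small nuclear ribonucleoprotein that holds the branch point adenosine of an intron while the spliceosome assembles. The splicing inhibitor pladienolide B (PB) wedges into the pocket that SF3B1 and PHF5A form around the branch point, and the series was made to study spliceosome mutations linked to resistance to it. Cancer mutations of SF3B1 are known for shifting the choice of 3′ splice sites, which gene-level counts do not show.

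The SF3B1 T1080I group held 1 library from each of the clones B05_2.03, B05_2.05 and B05_1.10, all made with the guide SF3B1_166 and treated for 3 h with the solvent DMSO. The control group held 3 replicates of 1 line transduced with a non-targeting guide, with the same DMSO treatment. The same clones and the control line were also treated with 2 nM PB for 3 h, 3 libraries each, and these are given beside some results. Both groups are eHAP FNLS cells, a haploid human line that carries the cytosine base editor FNLS. Because control is a single line, a difference between the groups cannot be told apart from a trait of that line, and each clone was therefore also set against control alone. The 9 other mutant lines under DMSO, 3 each of PHF5A 2xTL, SUGP1 E554K and SUGP1 G603N, gave a second comparison that does not rest on the control line. The spread behind the edgeR p-values was pooled over all 10 groups of the 30 libraries. It is a spread between clones in the mutant groups and between cultures of 1 line in control. DMSO and PB libraries of the same clone were counted as independent.

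The edited codon lies on chromosome 2, minus strand, in exon 22 of 25 of the longest coding transcript of SF3B1, at chr2:197398011-197398013 in hg38. It is shown with its neighbours because it is the codon of the change that names the T1080I group. The sequence is from the GENCODE release 29 transcript, 5′ to 3′, with the codon in capitals.
SF3B1 edited codon: gccacagtcaacACAtttggttatatt
The codon encodes threonine in the protein of 1304 residues, and C-to-T editing within it gives isoleucine. Counts per gene cannot show whether the edit is present. The SF3B1 transcript itself had 480, 461 and 511 CPM (counts per 1000000, scaled by the TMM method) in the T1080I clones and 444, 432 and 417 CPM in control. All 3 clones stood above all 3 controls, by a log2 fold change of 0.17 ± 0.10 (standard error) that did not pass the test (edgeR quasi-likelihood test, adjusted p = 1). PHF5A, the SF3b subunit that shares the PB pocket, had 44.5, 56.8 and 54.2 CPM in the T1080I clones and 48, 50.3 and 64.1 CPM in control, and the groups overlapped.

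Libraries held 5.29e+07 to 5.45e+07 counts in the T1080I group and 4.05e+07 to 5.23e+07 in control, with mitochondrial transcripts at 10.2% to 11.3% and 10.6% to 11.3% of counts. For 11982 genes averaging 4 CPM or more, the median standard deviation of log2 CPM was 0.13 between the 3 clones and 0.17 between the 3 control cultures. Log2 fold changes of these genes had a median standard error of 0.17. The control cultures also differed from each other over whole chromosomes, by the median log2 ratio of each to the mean of the others. These medians were -0.25, -0.06 and 0.32 on chromosome 19 (770 genes) and -0.02, 0.03 and 0.02 on chromosome 2 (810 genes). The cause was not tested.

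No gene passed an adjusted p of 0.05 between SF3B1 T1080I and control in edgeR, while DESeq2 called 48. Of 31444 genes tested with edgeR, 0 were called (0.0%), and the lowest adjusted p was 0.196. At an unadjusted p under 0.05, 715 genes (2.27%) were higher and 459 (1.46%) lower in the T1080I clones. All 3 clones stood above all 3 controls for 2092 genes (6.65%) and below them for 1664 (5.29%). The 48 genes of DESeq2 were 38 higher and 10 lower, and 19 of them lie within the first 40 Mb of chromosome 8. Without clone B05_1.10 edgeR called 53, 49 higher and 4 lower, of which 46 lie within the first 40 Mb of chromosome 8.

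The 5 genes of lowest p in each direction are given with every library. None of the 10 passed in edgeR, and DESeq2 called all 10, with adjusted p from 0.00198 for ERV3-1 and ENSG00000285669 to 0.0424 for NIPSNAP2 (0.0158 for DDX46). The helicase gene DDX46, whose product acts on the U2 particle during branch site recognition, stood at 333, 320 and 358 CPM in the T1080I clones and at 221, 226 and 239 CPM in control (chr5:134758771-134855133, plus strand). Every clone exceeded every control, and the log2 fold change was 0.56 ± 0.12 (edgeR, adjusted p = 0.196). C5orf24, which overlaps DDX46 on the same strand and could share its reads, had a log2 fold change of -0.04. In the libraries of the same clones treated with PB, DDX46 was at 258, 316 and 284 CPM, against 285, 296 and 268 CPM in control treated with PB. Under PB the groups overlapped, and the difference between the DMSO and PB contrasts was not tested.

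PYROXD1, an oxidoreductase that protects the tRNA ligase complex, had 24, 22.9 and 22.7 CPM in the T1080I clones and 14.7, 15.1 and 14.3 CPM in control. The spread within each group was small beside the gap, and the log2 fold change was 0.66 ± 0.14 (edgeR, adjusted p = 0.196). RECQL, which overlaps its end on the opposite strand, was at 48, 46.3 and 56.8 CPM in the T1080I clones and at 58.2, 53 and 53 CPM in control, and no source used here states whether reads were counted by strand. Under PB the T1080I clones had 21.3, 25.6 and 18.4 CPM of PYROXD1 and control had 11, 10.3 and 12.3 CPM, again without overlap.

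The endogenous retroviral envelope gene ERV3-1 was at 18.1, 19.4 and 17.5 CPM in the T1080I clones and at 10.0, 11.9 and 11.3 CPM in control (log2 fold change 0.73 ± 0.15, edgeR adjusted p = 0.196). Its locus on chromosome 7 overlaps ZNF117 on the same strand, at 34.3, 41.6 and 44.0 CPM in the T1080I clones and 23.4, 26.9 and 20.1 CPM in control, so the pair counts as 1 locus. The remaining 2 genes on the higher side, KBTBD11 and the long noncoding RNA gene ENSG00000285669, lie on the short arm of chromosome 8 and are described with it.

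FKBP3, a nuclear peptidyl-prolyl isomerase, was the lowest-p gene on the lower side, with 47.3, 45.5 and 69.5 CPM in the T1080I clones and 84.9, 96.5 and 93.9 CPM in control (chr14:45115600-45135319, minus strand). Clone B05_1.10 stood between the other 2 clones and control, and the log2 fold change was -0.76 ± 0.14 (edgeR, adjusted p = 0.196). The splicing factor gene PRPF39 overlaps its end on the opposite strand and had a log2 fold change of 0.02. ANKS6, a protein of the primary cilium, had 29.8, 33.0 and 42.6 CPM in the T1080I clones and 50.7, 55.7 and 65.7 CPM in control. Its log2 fold change was -0.71 ± 0.14 (edgeR, adjusted p = 0.196). B05_1.10 was again the clone nearest to control, and replicate 3 was the highest in both groups.

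ATXN7L3B had 60.1, 55.9 and 56.1 CPM in the T1080I clones and 80.5, 83.9 and 82.3 CPM in control, and its log2 fold change was -0.52 ± 0.11 (edgeR, adjusted p = 0.203). NIPSNAP2, which encodes a mitochondrial protein, had 50.4, 45.8 and 49.2 CPM in the T1080I clones and 69.9, 69.3 and 71.2 CPM in control. TSPAN12, a tetraspanin of Frizzled 4 signalling, was at 11.2, 5.92 and 12.8 CPM in the T1080I clones and at 23.6, 26.5 and 19.2 CPM in control, with the lowest value in B05_2.05. The other mutant lines had 49.4 to 69.8 CPM of NIPSNAP2 and 8.86 to 20.8 CPM of TSPAN12, and both ranges overlapped that of control.

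**Figure D1:**
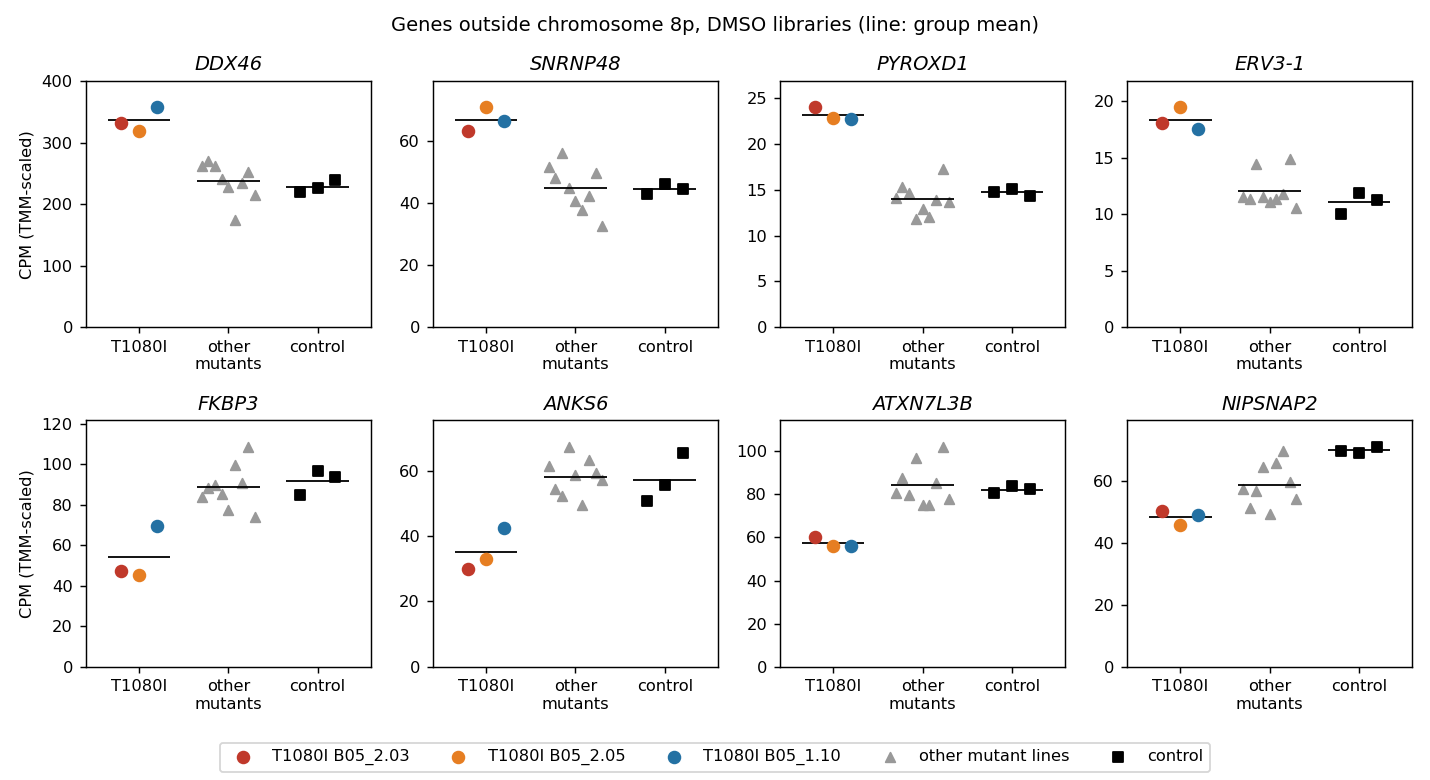
CPM of 8 genes outside the short arm of chromosome 8 in the DMSO libraries, with the 3 T1080I clones on the left, the 9 other mutant lines in the middle and the 3 control cultures on the right. Horizontal lines are group means. For DDX46, SNRNP48, PYROXD1 and ERV3-1 the 3 T1080I clones lie above every other library, for FKBP3, ANKS6 and ATXN7L3B below every other library, and for NIPSNAP2 they overlap the other mutant lines (49.4 to 69.8 CPM).

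Against the 9 other mutant lines, 63 of 31444 genes (0.2%) were called with edgeR, 56 higher (0.178%) and 7 lower (0.0223%) in SF3B1 T1080I. Of these, 39 lie in the first 40 Mb of chromosome 8 (9.77% of the genes tested there) and 24 elsewhere (0.0773%), 17 higher and 7 lower. With p adjusted over the genes outside that stretch, 12 of the 24 were called. All 63 had the same sign against control, and the comparisons share the T1080I libraries. This count rests on clones B05_2.03 and B05_2.05: it was 1 without B05_2.03, 0 without B05_2.05 and 123 without B05_1.10. The third lines of both SUGP1 genotypes differ from the other libraries in their shares of pseudogene or mitochondrial counts. Without them 60 genes were called, 30 of them shared with the 63, and 15 of the 60 lie in the first 40 Mb of chromosome 8.

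Of the genes named above, DDX46, PYROXD1, ERV3-1, FKBP3, ANKS6 and ATXN7L3B were called against the other mutant lines, and TSPAN12 and NIPSNAP2 were not. DDX46 ranged from 174 to 271 CPM in those 9 lines, below all 3 T1080I clones, and the log2 fold change was 0.51 ± 0.09 (edgeR, adjusted p = 0.0107). PYROXD1 ranged from 11.8 to 17.3 CPM there (log2 fold change 0.74 ± 0.11, edgeR adjusted p = 0.00463). FKBP3 ranged from 73.7 to 109 CPM (log2 fold change -0.71 ± 0.12, edgeR adjusted p = 0.00938) and ANKS6 from 49.6 to 67.5 CPM (log2 fold change -0.73 ± 0.12, edgeR adjusted p = 0.00842). ATXN7L3B had 74.9 to 102 CPM there and a log2 fold change of -0.56 ± 0.10 (edgeR, adjusted p = 0.00938).

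Each of these 6 genes was also called with p adjusted outside the chromosome 8 stretch. Other called genes outside chromosome 8 were chosen for naming after their values were seen, and of those named SNRNP48, DGLUCY and GATA3 were called with that adjustment while PARP14 (adjusted p = 0.111) and CENPV (adjusted p = 0.0819, both edgeR) were not. SNRNP48, a protein of the U11/U12 particle that recognises minor introns, had 63.4, 70.9 and 66.5 CPM in the T1080I clones and 43.0, 46.3 and 44.6 CPM in control, with 32.5 to 56.2 CPM in the other mutant lines (chr6:7590199-7611967, plus strand). No library of another genotype reached the T1080I values, and the log2 fold change was 0.58 ± 0.10 against the other mutant lines (edgeR, adjusted p = 0.00938) and 0.58 ± 0.12 against control (edgeR, adjusted p = 0.196). Under PB the T1080I clones kept apart, at 67.0, 68.1 and 65.0 CPM against 44.3, 53.1 and 46.5 CPM in control. DGLUCY, a mitochondrial D-glutamate cyclase, had 37.0, 40.1 and 35.3 CPM in the T1080I clones and 21.4, 24.7 and 29.3 CPM in control.

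The transcription factor gene GATA3 was at 20.7, 29.8 and 28.5 CPM in the T1080I clones, at 8.95 to 21.9 CPM in the other mutant lines and at 17.1, 17.6 and 17.4 CPM in control, so that B05_2.03 lay within the range of the other mutants. PARP14, an ADP-ribosyltransferase, had 76.4, 75.3 and 52.1 CPM in the T1080I clones and 46.0, 48.4 and 35 CPM in control. CENPV, a centromere protein, had 49.2, 49.1 and 65.7 CPM in the T1080I clones and 69.7, 71.3 and 83.2 CPM in control. For PARP14 and CENPV, as for FKBP3 and ANKS6, B05_1.10 was the clone nearest to control. B05_1.10 is replicate 3 of its group. Control replicate 3 was likewise the lowest control for PARP14 and the highest for CENPV and ANKS6, but not the highest for FKBP3. For PARP14, CENPV and ANKS6 a trait of the clone cannot be told apart from a shift shared by replicates of that number. Such a shift was not tested.

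The clones differed from each other over most of the short arm of chromosome 8. Genes were set in order along the chromosome, and each clone's log2 ratio to the control mean was taken over genes of at least 4 CPM. From the start of the chromosome up to FGFR1 and the pseudogene RPS20P22 inside it, 121 genes had a median log2 ratio of 0.98 in B05_2.03 and 0.99 in B05_2.05, against 0.04 in B05_1.10. These medians correspond to 1.97-fold, 1.99-fold and 1.03-fold the control level. In B05_2.03 113 genes (93.4%) exceeded all 3 controls, in B05_2.05 114 (94.2%), and in B05_1.10 37 (30.6%). Over the 287 genes of chromosome 8 beyond 40 Mb these shares were 25.1%, 27.2% and 35.9%.

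The step between neighbours at the edge was sharp. The receptor gene FGFR1 (chr8:38400215-38468834, minus strand) had 495, 427 and 225 CPM in B05_2.03, B05_2.05 and B05_1.10 and 198, 222 and 252 CPM in control. The next gene, TACC1 (chr8:38728186-38853028, plus strand), had 108, 116 and 118 CPM in the 3 clones and 114, 122 and 102 CPM in control. PLEKHA2, the gene after TACC1, had log2 ratios of 1.07, 0.51 and 0.50 in the 3 clones. Over the 287 genes beyond 40 Mb the medians of B05_2.03 and B05_2.05 were -0.02 and 0.02.

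The same step was present in the PB libraries of these clones, with medians over the 121 genes of 1.08 in B05_2.03, 1.16 in B05_2.05 and 0.13 in B05_1.10 against control treated with PB. In the 9 other mutant lines the median over the first 40 Mb lay between -0.18 and 0.06. The step was thus present in 2 of the 3 clones labelled T1080I and not in B05_1.10. The labels call the 3 lines independent, and whether B05_2.03 and B05_2.05 descend from 1 cell was not tested.

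**Figure D2:**
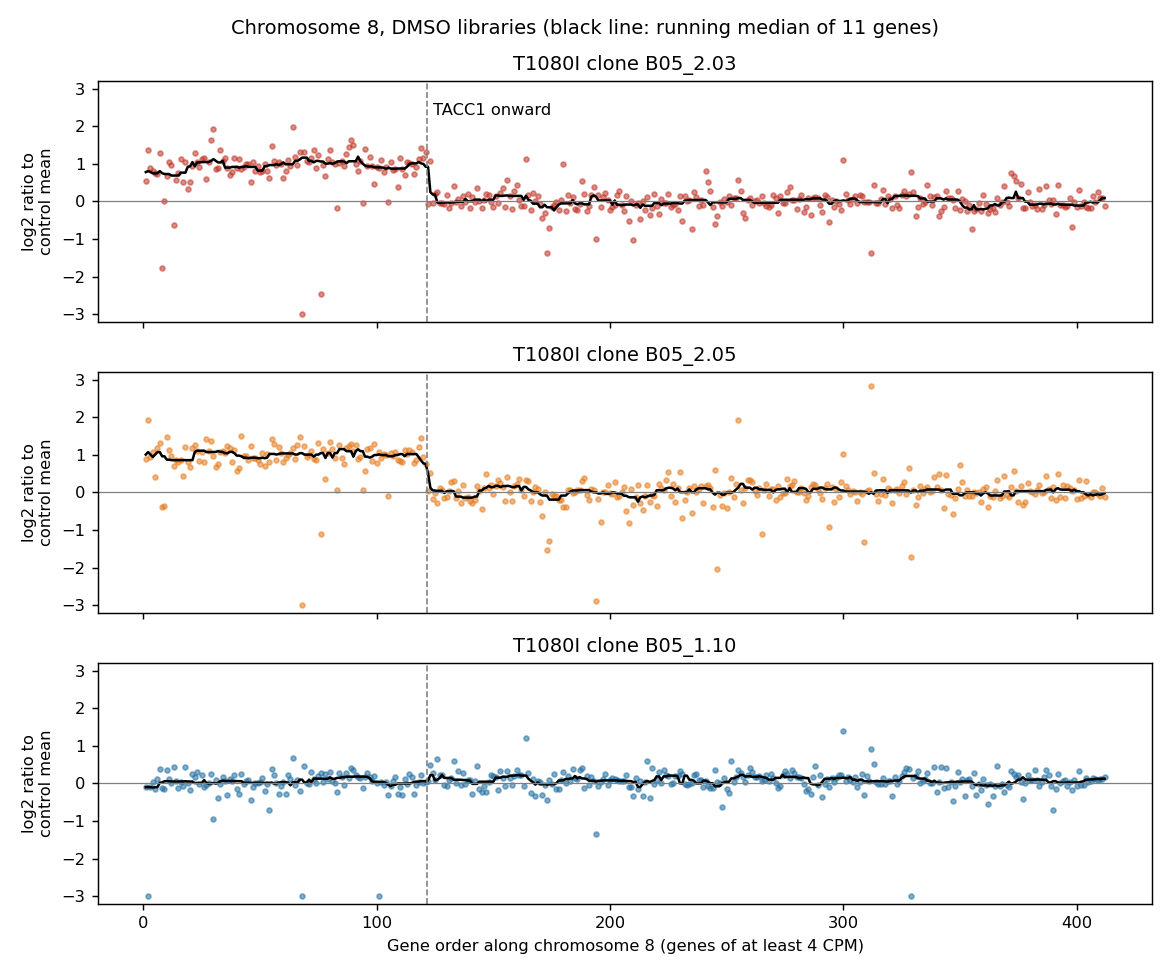
Log2 ratio of each T1080I clone to the control mean for 412 genes of at least 4 CPM in their order along chromosome 8, 1 panel per clone. Points are genes, with values below -3 drawn at -3, the black line is a running median of 11 genes, and the dashed line marks the step before TACC1. Medians up to the line are 0.98 in B05_2.03, 0.99 in B05_2.05 and 0.04 in B05_1.10.

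Single genes of the stretch carried this difference at many levels of expression. KBTBD11, a substrate adaptor of a ubiquitin ligase, had 57.4, 58.3 and 30.4 CPM in the T1080I clones and 23.0, 26.9 and 20.8 CPM in control, and it was called against the other mutant lines (log2 fold change 1.03 ± 0.15, edgeR adjusted p = 0.00463). The noncoding ENSG00000285669 had 11.8, 10.1 and 4.07 CPM in the T1080I clones and 2.73, 2.19 and 2.06 CPM in control. For both genes B05_1.10 also stood above control, by less than the other 2 clones.

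CCAR2, a nuclear protein that couples elongation and splicing, had 189, 217 and 105 CPM in the T1080I clones and 78.7, 90.4 and 99.2 CPM in control. FDFT1, the squalene synthase of the cholesterol pathway, had 561, 541 and 299 CPM in the T1080I clones and 244, 250 and 280 CPM in control. GSR, glutathione reductase, had 214, 213 and 106 CPM in the T1080I clones and 102, 93.7 and 86.8 CPM in control. SLC25A37, the mitochondrial iron importer mitoferrin, had 129, 159 and 71.1 CPM in the T1080I clones and 58.6, 65.2 and 76.3 CPM in control. In each of these 4 genes B05_1.10 was within or just above the control range.

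Among genes chosen after their values were seen, the centriolar satellite gene PCM1 had 501, 493 and 265 CPM in the T1080I clones and 244, 237 and 196 CPM in control. CNOT7, a deadenylase of the CCR4-NOT complex, had 333, 338 and 177 CPM in the T1080I clones and 169, 169 and 138 CPM in control. The helicase gene WRN had 99.4, 92.1 and 53.6 CPM in the T1080I clones and 52.7, 54.8 and 51.9 CPM in control. The unadjusted p was under 0.05 for 30.1% of the 399 tested genes in the first 40 Mb and for 3.4% of genes elsewhere in the comparison of all 3 clones with control.

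Of the 121 genes, 8 were not above all controls in both clones. Of these, 4 are processed pseudogenes, out of 5 in the stretch (PAICSP4, RPL5P22, TUBBP1 and LSM12P1), whose reads can come from or go to a parent gene on another chromosome. TUBBP1 had 88.5, 94.1 and 83.5 CPM in the T1080I clones and 98.2, 78.4 and 97.1 CPM in control. The others are CSMD1, PRAG1, the neurofilament gene NEFL and the adrenergic receptor gene ADRA1A. ADRA1A had 3.81, 9.77 and 25.7 CPM in the T1080I clones and 18.9, 23.1 and 21.6 CPM in control, so it was lower in the clones in which its neighbours were higher.

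Clone B05_1.10 had stretches of its own. Over 27 genes in the first 10 Mb of chromosome 18 its median log2 ratio was 0.84, against -0.16 in B05_2.03 and -0.22 in B05_2.05, and 0.81 in its PB library. TYMS, thymidylate synthase, had 69.2, 79.7 and 157 CPM in B05_2.03, B05_2.05 and B05_1.10 and 88.9, 88.0 and 102 CPM in control. VAPA, an endoplasmic reticulum contact protein, had 121, 123 and 247 CPM in the 3 clones and 135, 141 and 126 CPM in control, while NAPG, the next gene, had 31.9, 29.3 and 37.9 CPM in the clones and 31.3, 35.5 and 25.6 CPM in control. Of the 9 other mutant lines, 2 also had a median over 0.5 there.

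On chromosome 14, 5 neighbouring genes were higher in B05_1.10 than in every other DMSO library. VTI1B, a SNARE of endosome fusion, had 113 CPM in B05_1.10 under DMSO and 118 CPM under PB, against 50.6, 51.2 and 49.7 CPM in control under DMSO (chr14:67647075-67674831, minus strand). RDH11, a retinol dehydrogenase, had 157 CPM in B05_1.10 under DMSO and 149 CPM under PB, against 70.7, 71.2 and 75.6 CPM in control under DMSO. PLEKHH1, PIGH and ARG2, which precede them and of which ARG2 overlaps VTI1B on the opposite strand, had log2 ratios of 0.85, 0.93 and 1.01 in this clone. The flanking genes EIF2S1 and ZFYVE26 had 0.16 and 0.34. With 1 library for the clone, VTI1B reached an adjusted p of 0.311 in edgeR and none of the 5 was called.

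On chromosomes 4 and 21 all 3 clones were lower than control over a long stretch. Most other mutant lines shared this on chromosome 4, while on chromosome 21 they were divided. Over 139 genes in the first 50 Mb of chromosome 4 the medians were -0.32, -0.30 and -0.26 in the T1080I clones, and 8 of the 9 other mutant lines were also below 0. Over 123 genes of chromosome 21 they were -0.28, -0.27 and -0.23, with 5 of the 9 other lines below 0 and 4 over 0.5. DHX15, a helicase that removes spliceosomes from intron lariats, lies in the chromosome 4 stretch and had 347, 350 and 398 CPM in the T1080I clones and 478, 465 and 475 CPM in control. Its log2 fold change was -0.37, and whether this belongs to the stretch was not tested.

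**Figure D3:**
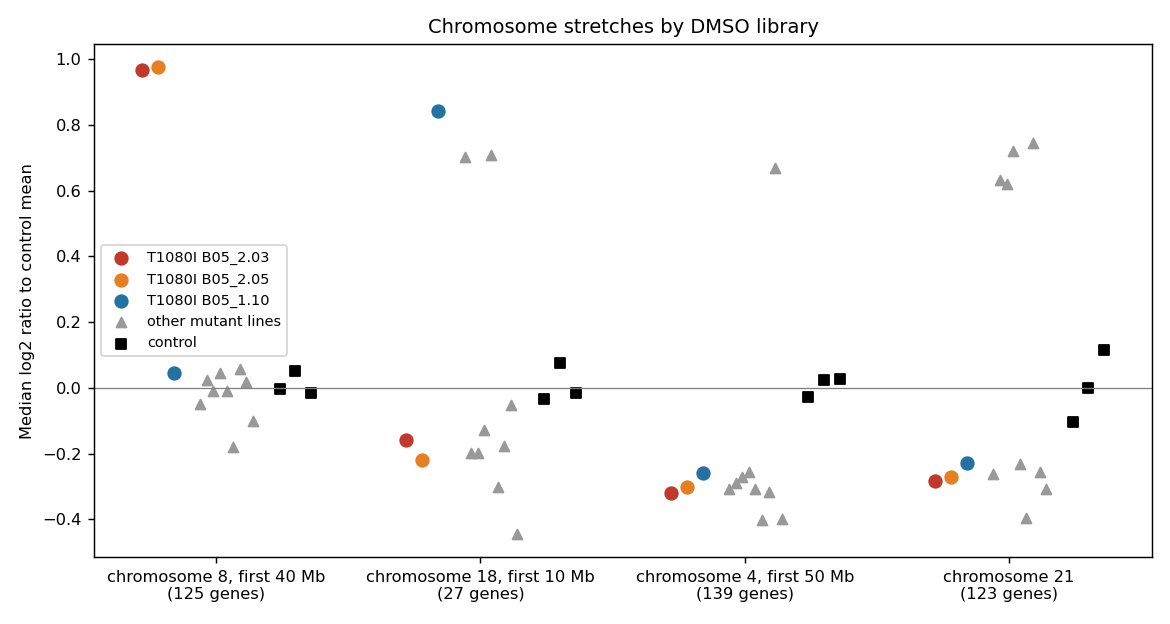
Median log2 ratio to the control mean over 4 chromosome stretches, with 1 point for each DMSO library, the T1080I clones to the left of the other mutant lines and control. B05_2.03 and B05_2.05 stand near 1 on chromosome 8, B05_1.10 stands at 0.84 on chromosome 18, and all 3 clones lie between -0.32 and -0.23 on chromosomes 4 and 21.

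Clone by clone against control, the counts of calls depended on the filter and on the libraries fitted. With 1 library for each clone and the spread taken from all groups, edgeR called 0 genes in B05_2.03 (0.0%), 3 in B05_2.05 (0.00954%) and 0 in B05_1.10 (0.0%). At an unadjusted p under 0.05 there were 869 (2.76%), 993 (3.16%) and 594 (1.89%) genes. The 3 called genes, SLC25A37, CCAR2 and KBTBD11, were higher and lie in the first 40 Mb of chromosome 8. With no low-count filter the counts were 38 in B05_2.03, 35 in B05_2.05 and 3 in B05_1.10, and with the 15 DMSO libraries alone 31 in B05_2.03 and 23 in B05_2.05. The 3 calls of B05_2.05 fell to 0 with a replicate block or with p adjusted outside the stretch, and to between 0 and 2 with 1 library left out. DESeq2 was not run for single clones.

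The clones also differed from each other in genes that were near 0 in some lines, the other mutant lines included. A gene was counted when both libraries of a clone, DMSO and PB, were under 1 CPM while all 6 control libraries were at 4 CPM or more, a rule set after values had been seen. B05_1.10 had 10 such genes, B05_2.03 had 3 and B05_2.05 had 1, and the 9 other mutant lines had 1 to 15. The zinc finger gene ZC4H2 on the X chromosome had 0.0574 CPM in B05_1.10, from 3 counts, with 20.4 and 17.7 CPM in the other T1080I clones and 10.5, 10.9 and 12.4 CPM in control. It was also under 1 CPM in 5 of the 9 other mutant lines under DMSO (0.106 to 18 CPM). FBXO25, a ubiquitin ligase adaptor at the tip of chromosome 8, also had 3 counts in B05_1.10, with 41.9 and 62.2 CPM in the other clones and 17.5, 17.9 and 13.7 CPM in control, and 4 of the 9 other mutant lines were under 1 CPM under DMSO (0.0924 to 35.1 CPM).

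TAFA5 had 0 counts in B05_1.10 under DMSO and 1 under PB, and a count of 0 does not exclude a low level. Under DMSO it had 20.6 and 11.4 CPM in the other clones, 1.87 to 19.8 CPM in the other mutant lines and 4.90, 5.59 and 9.52 CPM in control. In B05_2.03, CYYR1 had 0.0555 CPM, with 1.25 CPM in B05_2.05, 16.1 CPM in B05_1.10, 2.26 to 22.4 CPM in the other mutant lines and 12.7, 10.1 and 12.7 CPM in control. The reverse, at 4 CPM or more in both libraries of a clone and under 1 CPM in all 6 control libraries, held for 3 genes in B05_2.03 and 1 each in B05_2.05 and B05_1.10. ZNF804A met it in B05_2.03 and B05_2.05, at 8.14 and 6.94 CPM, with 1.59 CPM in B05_1.10, 0.238 to 3.94 CPM in the other mutant lines and 0.840, 0.469 and 0.359 CPM in control.

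**Figure D4:**
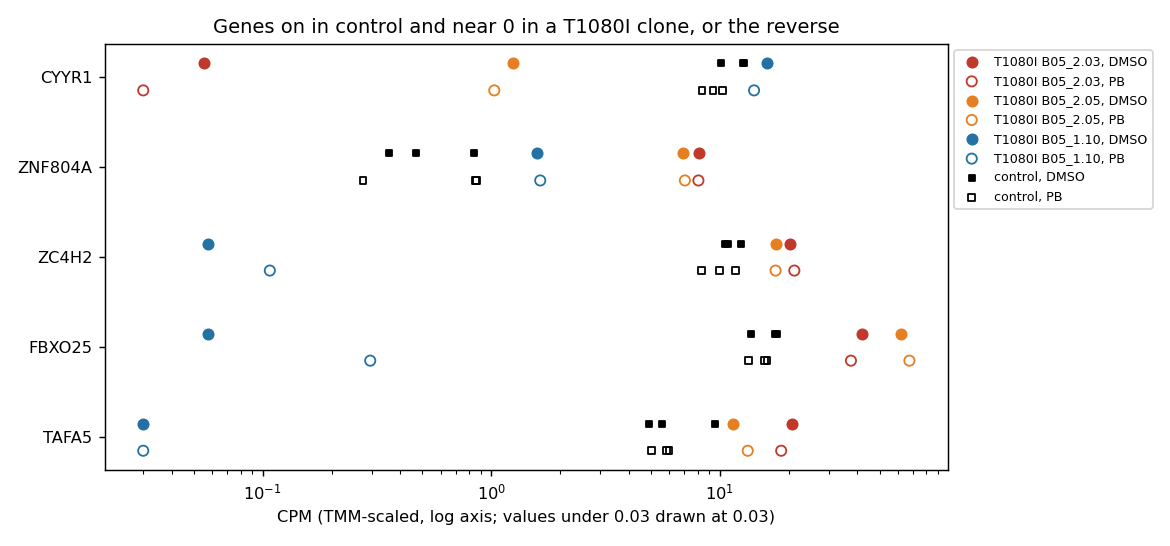
CPM on a log axis for the 5 genes named above that were near 0 in a T1080I clone and expressed in control, or the reverse. Filled symbols are DMSO and open symbols PB libraries, circles are T1080I clones and squares control, and values under 0.03 CPM are drawn at 0.03. For ZC4H2, FBXO25 and TAFA5 both libraries of B05_1.10 lie under 1 CPM, and for CYYR1 both libraries of B05_2.03 do.

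Lists of splicing factors had medians near that of all genes. No list had a member called by edgeR against control, where 0.0% of all genes were called. DESeq2 called 4 list members, DDX46 (adjusted p = 0.0158), CCAR2 (0.0128) and FDFT1 (0.0199), of which CCAR2 and FDFT1 lie in the chromosome 8 stretch, and HOXD13 (0.0499). Counts in edgeR at an unadjusted p under 0.05 are given beside 3.73% of all genes and 5.24% of genes of at least 4 CPM. Of 23 SF3b and U2 components, 2 were higher (DDX46 and GPATCH8) and 2 lower (SF3B5 and DHX15). Together these are 17.4% of the list, and the median log2 fold change was 0.02. SF3B5, a small SF3b subunit, had 56.7, 59.2 and 77.3 CPM in the T1080I clones and 69.8, 70.8 and 104 CPM in control, and the groups overlapped. Of 13 factors of branch point and 3′ splice site recognition only CCAR2, in the chromosome 8 stretch, was higher, and the median was -0.04.

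Of 14 U1 and 5′ splice site factors 1 was lower (PRPF40B), of 24 tri-snRNP and catalytic factors 1 was lower (PRPF3), of 24 SR proteins and their kinases 1 was lower (SRSF8), and of 24 hnRNP proteins 2 were lower (HNRNPH3 and HNRNPDL). The medians of these 4 lists were -0.014, -0.0055, -0.0044 and -0.049, beside 0.01 for all genes of at least 4 CPM. PRPF3, a component of the U4/U6 particle, had 113, 91.1 and 102 CPM in the T1080I clones and 127, 130 and 144 CPM in control, without overlap (log2 fold change -0.39, edgeR adjusted p = 1).

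Nonsense-mediated decay showed no member at an unadjusted p under 0.05 among 16 factors (median 0.07). Of 18 host genes and decay-sensitive transcripts 1 was higher and 2 were lower (16.7%, median 0.01). The host gene SNHG5 had 40.6, 37.3 and 39.8 CPM in the T1080I clones and 27.6, 28.6 and 25.5 CPM in control (log2 fold change 0.53). Of 24 genes reported as targets of SF3B1 cancer mutations 0 reached an unadjusted p under 0.05 (median -0.04). The kinase gene MAP3K7, one of them, had 68.7, 68.6 and 76.3 CPM in the T1080I clones and 66.4, 70.8 and 62.3 CPM in control. BRD9, a chromatin remodeller subunit, had 59.0, 66.2 and 67.3 CPM in the T1080I clones and 55.3, 65.0 and 77.8 CPM in control.

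**Figure D5:**
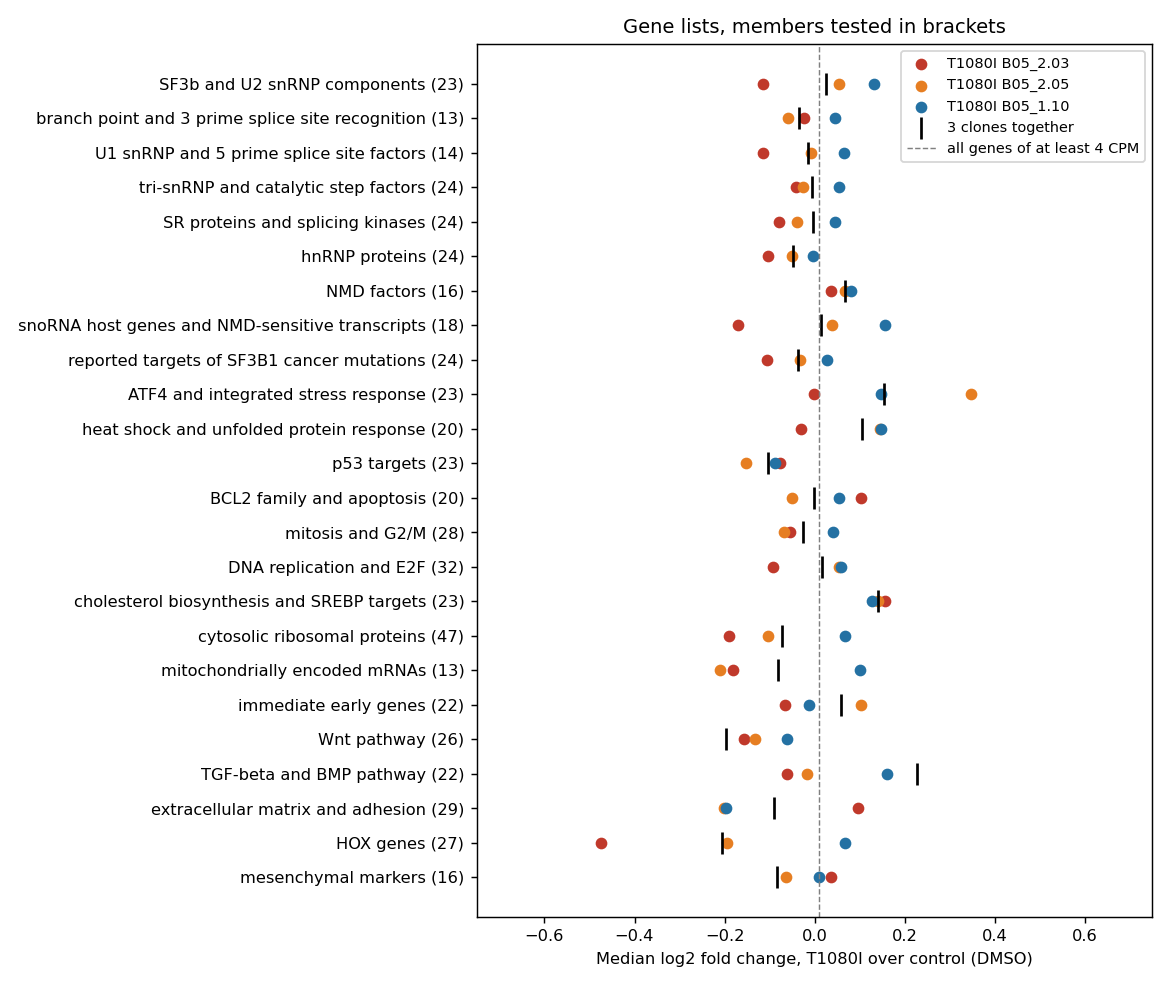
Median log2 fold change over the tested members of 24 gene lists in each T1080I clone (coloured points) and in the 3 clones together (black bar) against control. Lists made mostly of members under 4 CPM are left out, and the dashed line is the median of all genes of at least 4 CPM. The lists of splicing factors lie between -0.05 and 0.02 for the 3 clones together.

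Reads of near-identical genes may have been split between them in the counting, which touches the RPL5 family. The pseudogenes RPL5P8 and RPL5P12 had log2 fold changes of 1.18 and 0.95, with RPL5P8 at 14.9, 17.5 and 20.2 CPM in the T1080I clones and 7.31, 9.21 and 6.75 CPM in control. DESeq2 called both against control (adjusted p = 0.0119 and 0.00923). Against the other mutant lines they had 0.54 and 0.36 and were not called (edgeR, adjusted p = 0.457 and 0.645). Among other RPL5 pseudogenes, log2 fold changes against control were 0.54 for RPL5P34, 0.48 for RPL5P4, 0.0039 for RPL5P1 and -0.11 for RPL5P9. RPL5 itself, at 1064, 1171 and 1305 CPM in the T1080I clones and 1085, 1142 and 1342 CPM in control, did not part the groups. The values of these pseudogenes are uncertain for that reason.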

How the data were processed

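RNA-seq libraries were made from poly(A)-selected RNA with a CORALL kit and sequenced as paired 150-base reads on a NovaSeq, per the labels' protocols. Reads were handled with UMI-tools, STAR and SAMtools 1.10 on hg38, per the submitters' processing notes. No source used here states the counting program, its annotation, its strand setting or its treatment of multimapping reads. The authors deposited 1 table of estimated counts for 61487 genes in 30 libraries, not normalized, in which 65.5% of values above 0 are not whole within 0.001. Such values can hold reads divided between near-identical genes.

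Counts were rounded, filtered with filterByExpr (31444 genes kept, 16223 protein coding), scaled by TMM and fitted with edgeR 4.0.16 in R 4.3.3, with 1 mean for each of 10 groups over all 30 libraries. Clones were fitted as single libraries. Benjamini-Hochberg adjustment ran over every gene tested, and genes were called under 0.05. CPM values are per 1000000 TMM-scaled counts, and log2 values use a prior count of 2. Coordinates and gene classes are from GENCODE release 29, which held 58312 of the identifiers. limma 3.58.1 and DESeq2 1.42.0 gave alternatives, with leave-one-out fits, another scaling, other filters and a replicate block. The script was tested on simulated counts with known changes in genes of at least 4 CPM. Against control it recovered 23.9% of 67 genes at an absolute log2 change of 0.585. The shares were 70.1% of 67 genes at 1 and 95.5% of 66 genes at 2. A count of 0 calls therefore does not exclude changes of 0.585 or 1.

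The libraries, the 30 gene lists and the tests were chosen with earlier results of these data known. Genes named by rule were SF3B1, PHF5A and SUGP1, the 15 largest called changes in each direction at a mean of 4 CPM or more without overlap, up to 4 called members of a list and the 3 largest changes in each direction called in 1 clone only. Where fewer than 20 genes were called, the 5 of lowest p in each direction were named. Other genes were picked with their values in view. The third lines of both SUGP1 genotypes, the PB libraries and adjustment outside the first 40 Mb of chromosome 8 were chosen after seeing the data.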

Additional observations from a re-analysis of the deposited data

Results flagged for a closer look

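The number of genes called between SF3B1 T1080I and the 9 other mutant lines was 63, and the difference was tested directly with edgeR. Of the genes of lowest p against control, 8 also differed from the other mutant lines in that test, by log2 fold changes of 1.03 for KBTBD11, 1.48 for ENSG00000285669, 0.61 for ERV3-1, 0.51 for DDX46 and 0.74 for PYROXD1 on the higher side. On the lower side they were -0.71 for FKBP3, -0.73 for ANKS6 and -0.56 for ATXN7L3B. KBTBD11 and ENSG00000285669 lie in the chromosome 8 stretch, in which B05_1.10 had a median log2 ratio of 0.04.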

How the results depend on the processing

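The count between T1080I and control was 0 with the other scaling, the stricter filter, the 15 DMSO libraries, limma voom and a replicate block, and 8 with no low-count filter, 2 with the 6 libraries alone, 3 with these and a replicate block, 48 with DESeq2, 2 without the third lines of both SUGP1 genotypes and 0 to 53 with 1 library left out (53 without B05_1.10, 1 without control replicate 3). Against the other mutant lines it was 118 with no filter, 129 at 1 CPM or more, 23 with the 15 DMSO libraries, 130 with a replicate block, 153 with limma voom, 199 with DESeq2, 12 when adjusted outside the chromosome 8 stretch, and 0 to 123 with 1 library left out. For B05_2.03 it was 38 with no filter and 31 with the 15 DMSO libraries. For B05_2.05 it was 1 with the other scaling, 35 with no filter, 23 with the 15 DMSO libraries, 0 with a replicate block, 0 when adjusted outside the stretch and 0 to 2 with 1 library left out. For B05_1.10 it was 3 with no filter. The labels state no shared source for a T1080I clone and a control culture of the same replicate number. Summed CPM of the 47 cytosolic ribosomal protein genes rose with that number in both groups. It was 28006, 29508 and 33355 in the T1080I clones and 29100, 29649 and 36966 in control. The sum over p53 targets fell with that number in the T1080I clones and did not in control. Whether replicates of the same number share a batch was not tested, nor was the cause of the shifts in the counts of calls.

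Log2 fold changes of 7 genes changed sign under some alternative. In the PB libraries SF3B1 was at -0.077, PHF5A at 0.045 and SUGP1 at 0.027. With 1 library left out the ranges were -0.13 to 0.081 for PHF5A, -0.17 to 0.19 for SUGP1, -0.072 to 0.088 for RPL5, -0.16 to 0.63 for RDH11, -1.03 to 0.0048 for ENSG00000227741 and -1.94 to 0.89 for THBS1. THBS1 was also at -1.56 with limma voom, -0.42 with a replicate block, -0.96 with the 6 libraries and a block, and -0.0089 in the PB libraries. The other 1332 values of named genes kept their sign. At 1 CPM or more the medians of the chromosome 8 stretch were 0.91 and 0.90 in B05_2.03 and B05_2.05.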

Other observations

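Other gene lists are given beside 3.73% of all genes and 5.24% of genes of at least 4 CPM at an unadjusted p under 0.05. They also had no member called by edgeR against control, and DESeq2 called FDFT1 (adjusted p = 0.0199) and HOXD13 (adjusted p = 0.0499). Of 23 cholesterol synthesis genes and SREBP targets 3 were higher at that level, FDFT1 in the chromosome 8 stretch, INSIG1 and HSD17B7, and the median log2 fold change was 0.14. INSIG1, which retains the SREBP escort protein in the endoplasmic reticulum, had 42, 48.8 and 41.9 CPM in the T1080I clones and 32.6, 38.4 and 30.2 CPM in control. Of 28 mitosis genes and of 32 replication genes 0 reached that level, with medians of -0.03 and 0.02. Of 23 ATF4 targets 2 were higher (median 0.15), and of 23 p53 targets 1 was higher and 2 were lower (median -0.10).

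Of 15 neural genes tested, 9 of them under 4 CPM, 3 were lower at an unadjusted p under 0.05 (median -0.47). PAX6, a transcription factor of the neural tube and eye, had 1.83, 1.39 and 1.97 CPM in the T1080I clones and 6.82, 6.66 and 8.85 CPM in control, without overlap. MAP2, a microtubule protein of dendrites, had 4.0 and 5.56 CPM in B05_2.03 and B05_2.05, 27.8 CPM in B05_1.10, and 32.7, 31.0 and 33.0 CPM in control. The pluripotency and neural factor SOX2 had 654, 824 and 748 CPM in the T1080I clones and 592, 811 and 1133 CPM in control, and the groups overlapped. Of blood cell genes, PTPRC was at 0.0740 to 0.134 CPM in the T1080I clones and 0.00 to 0.117 CPM in control, and 1 of the 13 tested blood cell genes, GATA1, was higher at that level (median 0.018).

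The remaining lists held few such genes. Of 20 heat shock and unfolded protein response genes 1 was higher, HSP90AA1 (median 0.10), of 20 apoptosis genes 1 was lower, BCL2 (median -0.0025), and of 22 immediate early genes 1 was higher, JUN (median 0.059). Of 47 cytosolic ribosomal protein genes 1 was lower, RPS23 (median -0.072), and of 13 mitochondrial mRNAs 0 reached that level (median -0.081). Of 26 Wnt pathway genes 1 was higher, FZD3, and 2 were lower, DKK3 and WNT3 (median -0.20), and of 22 TGF-beta and BMP genes 0 did so (median 0.23). Of 29 matrix and adhesion genes 2 were lower, FBN1 and NCAM1 (median -0.091), and of 27 HOX genes HOXD13 was higher and HOXC4 lower (median -0.20). Of 18 imprinted genes MEG3 and NNAT were higher and IGF2 lower (median -0.12). Of 23 interferon response genes, 16 of them under 4 CPM, IFI35 was higher (median 0.23). All 8 tested cancer-testis genes were under 4 CPM, and 1, MAGEA3, was lower (median -1.36). Of 16 mesenchymal and 13 epithelial genes 0 reached that level, with medians of -0.083 and 0.15.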
